A study of Mus musculus with 6 samples.

Results

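The endoplasmic reticulum (ER) chaperones and co-chaperones described here were 10 genes, namely Hspa5, Hsp90b1, Calr, Canx, Dnajb9, Dnajb11, Dnajc3, Manf, Creld2 and Sdf2l1, measured in mouse calf muscle that overexpresses integrin alpha7. The genes were chosen by symbol, with the transgenic minus wild type differences of these same arrays already known, so those differences are given as a description and are not tested for the 10 genes. Every probe set that the platform annotation ties to exactly 1 of these symbols was taken, which gave 21 probe sets of 45037 that were not controls, and 10 genes of 18193 with a probe set of their own. All 21 were bright enough to be among the 27022 kept for the fit. Transgenic samples came from integrin alpha7 transgenic females, and wild type samples from control females of the same SJ6/C57BL6 background. Both were 5 weeks old and not fasted, and both gave gastrocnemius and soleus muscle in the basal state. Each genotype had 3 arrays. An array measured the joined RNA of 6 animals, which makes the pool the replicate and leaves the spread between single animals unseen. The labels name neither the promoter nor the line of the transgene. The control titles also carry the word intronic, which is not explained in the sources used here.

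Proteins destined for the membrane, the cell surface or secretion fold in the ER with the help of chaperones. Hspa5, also called BiP, is the HSP70 of this compartment, and J-domain proteins hand it unfolded clients, while Hsp90b1 is its HSP90. Canx and Calr are lectin chaperones that hold glycoproteins through their sugars, and Calr also stores calcium. When unfolded protein builds up, the sensors Atf6, Ern1 and Eif2ak3 start the unfolded protein response, and the transcription factors Atf6 and Xbp1 then raise many of these genes through short promoter elements. In muscle fibres the ER is continuous with the sarcoplasmic reticulum, the calcium store of contraction.

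The overexpressed gene checks the labels. Itga7 had signals of 2498, 2144 and 2072 on the transgenic arrays, against 254, 308 and 313 on the wild type arrays, a 7.32-fold difference (adjusted p = 1.67e-07, limma). Fibre genes defined the tissue on all arrays, with 8 of 8 markers measured and no signal under 4070.6. Their summed signal was 131830 to 137244 in transgenic and 143724 to 148893 in wild type muscle, without overlap. Summed signals were also lower in transgenic muscle for 5 macrophage markers, at 2613 to 2816 against 2917 to 3148, and for 5 endothelial markers, at 974 to 1088 against 1130.2 to 1267. They overlapped for 6 fibroblast markers, at 28884 to 32876 against 32390 to 34160, and for 3 adipocyte markers, at 16833 to 18229 against 17389 to 18090. Plasma cells are rich in ER. For 6 markers of plasma cells and B cells the sum was 511 to 530.4 in transgenic and 457 to 520.2 in wild type muscle. Of the 5 bright enough for the fit, 4 had a positive log2 difference, transgenic minus wild type, and 0 were called in limma's fit. The differences were 0.37 for Sdc1, 0.28 for Cd79a, 0.20 for Mzb1, 0.06 for Cd79b and -0.14 for Jchain. The plasma cell receptor Tnfrsf17 was too dim for the fit and was not tested. It lay at 4.43 to 16.2 against 26.7 to 40.1. The ratio of 3′ to 5′ signal of beta-actin, a sign of RNA integrity, was 0.873 to 0.959 on transgenic and 0.805 to 0.909 on wild type arrays. That of Gapdh was 0.778 to 0.809 on transgenic and 0.796 to 0.807 on wild type arrays. The median signal of an array was 34.0 to 37.3 in transgenic and 36.2 to 38.4 in wild type muscle. The part of any of these in the chaperone differences was not tested. Fewer cells of a type and less RNA per cell cannot be told apart in such samples.

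Promoter elements known to act on many of these genes were looked for, so finding them here is a description and no independent support. RefSeq windows of GRCm38.p6, with 250 bases before and 50 after the transcription start, were at hand for 9 of the 10 genes, and the window of Manf was not used here. They were searched on both strands for the ER stress response element (ERSE), which is CCAAT followed by 9 bases of any kind and then CCACG. An exact match lay in 6 of the 9 windows, those of Hspa5, Hsp90b1, Calr, Canx, Dnajc3 and Creld2. Of all 32851 promoter windows 39 held one, or 0.119%. Hsp90b1 held a pair of matches, which was the case for 1 of all the windows, namely its own. ERSE-II, with ATTGG before 1 base of any kind and then CCACG, lay in 12 windows, or 0.0365%, and among them was Dnajb11. The unfolded protein response element TGACGTG lay in 661 windows, or 2.01%, among them Hspa5. The amino acid response element, TGATG before 1 base of any kind and AAT, lay in 317 windows, or 0.965%, and in none of the 9. Dnajb9 and Sdf2l1 held no match to any of these letters. No matches overlapped each other. The stretches that hold the matches are printed below 5′ to 3′ on the strand of the gene, with the matches in capitals, because they show the shared element in each gene's own setting.
Hspa5, chr2:34771928-34772048, plus strand, with TGACGTG and ERSE: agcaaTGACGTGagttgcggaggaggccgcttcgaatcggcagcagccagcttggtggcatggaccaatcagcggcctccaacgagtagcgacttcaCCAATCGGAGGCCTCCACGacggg
Hsp90b1, chr10:86705528-86705661, minus strand, with ERSE in both directions: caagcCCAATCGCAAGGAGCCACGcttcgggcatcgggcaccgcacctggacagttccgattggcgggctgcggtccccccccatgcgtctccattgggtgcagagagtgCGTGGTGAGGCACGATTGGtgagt
Calr, chr8:84847070-84847098, minus strand, with ERSE reversed: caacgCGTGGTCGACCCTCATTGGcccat
Canx, chr11:50325795-50325823, minus strand, with ERSE forward: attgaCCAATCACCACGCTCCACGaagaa
Dnajc3, chr14:118937822-118937850, plus strand, with ERSE forward: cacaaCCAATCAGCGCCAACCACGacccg
Creld2, chr15:88819515-88819543, plus strand, with ERSE reversed: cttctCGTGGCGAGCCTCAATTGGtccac
Dnajb11, chr16:22857847-22857867, plus strand, with ERSE-II: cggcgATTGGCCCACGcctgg

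As only these windows were searched, every match had to lie close to the start. Counted in bases from the start, ERSE began at -65 in Hspa5, at -212 and -107 in Hsp90b1, at -162 in Calr, at -145 in Canx, at -105 in Dnajc3 and at -126 in Creld2. The ERSE-II of Dnajb11 began 7 bases after the start. With at most 1 of the 10 fixed letters differing, a setting chosen after the exact search was seen, 494 windows, or 1.504%, held an ERSE, and still the same 6 of the 9. Hsp90b1 then held 3. A match is a description of the letters, not of binding.

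**Figure D1:**
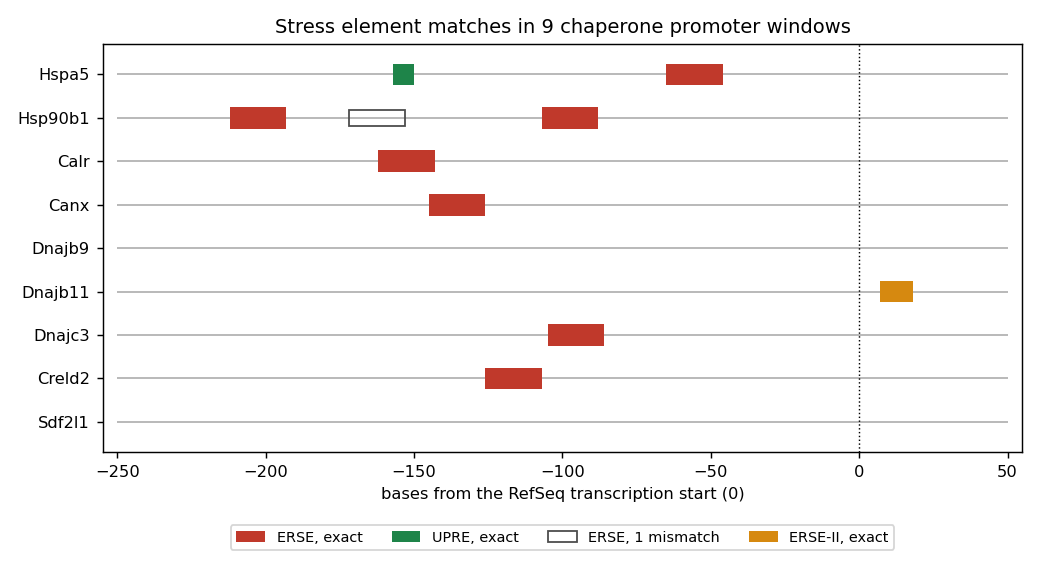
Positions of the matches in the 9 promoter windows, with bases from the RefSeq transcription start on the x axis and 1 gene per row; filled boxes are exact matches and the open box is an ERSE with 1 mismatch. The 7 exact ERSE matches of the 6 genes all begin between -212 and -65, and the rows of Dnajb9 and Sdf2l1 are empty.

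Across the group, 20 of 21 probe sets had a positive difference and the median on the log2(signal + 16) scale was 0.56, a 1.47-fold level. Over all 27022 kept probe sets the median was -0.01, and 47.4% were positive. In limma's fit over all kept probe sets, 6 of the 21 passed an adjusted p of 0.05 as higher in transgenic muscle and 0 as lower, where 0.0999% of all kept probe sets passed as higher and 0.0222% as lower. Those 6 belonged to Hspa5, with 2 probe sets, and to Hsp90b1, Calr, Dnajb9 and Manf, with 1 each. At an unadjusted p under 0.05 there were 14 higher and 0 lower, where 3.51% of all kept probe sets were higher and 4.34% lower. Every transgenic array lay above every wild type array for 15 of the 21, where this held for 5.85% of all kept probe sets. These counts describe genes picked with the same contrast in view and carry no support of their own. Without the intensity trend in the variance model 0 of the 6 passed, while 14 were still under an unadjusted p of 0.05.

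**Figure D2:**
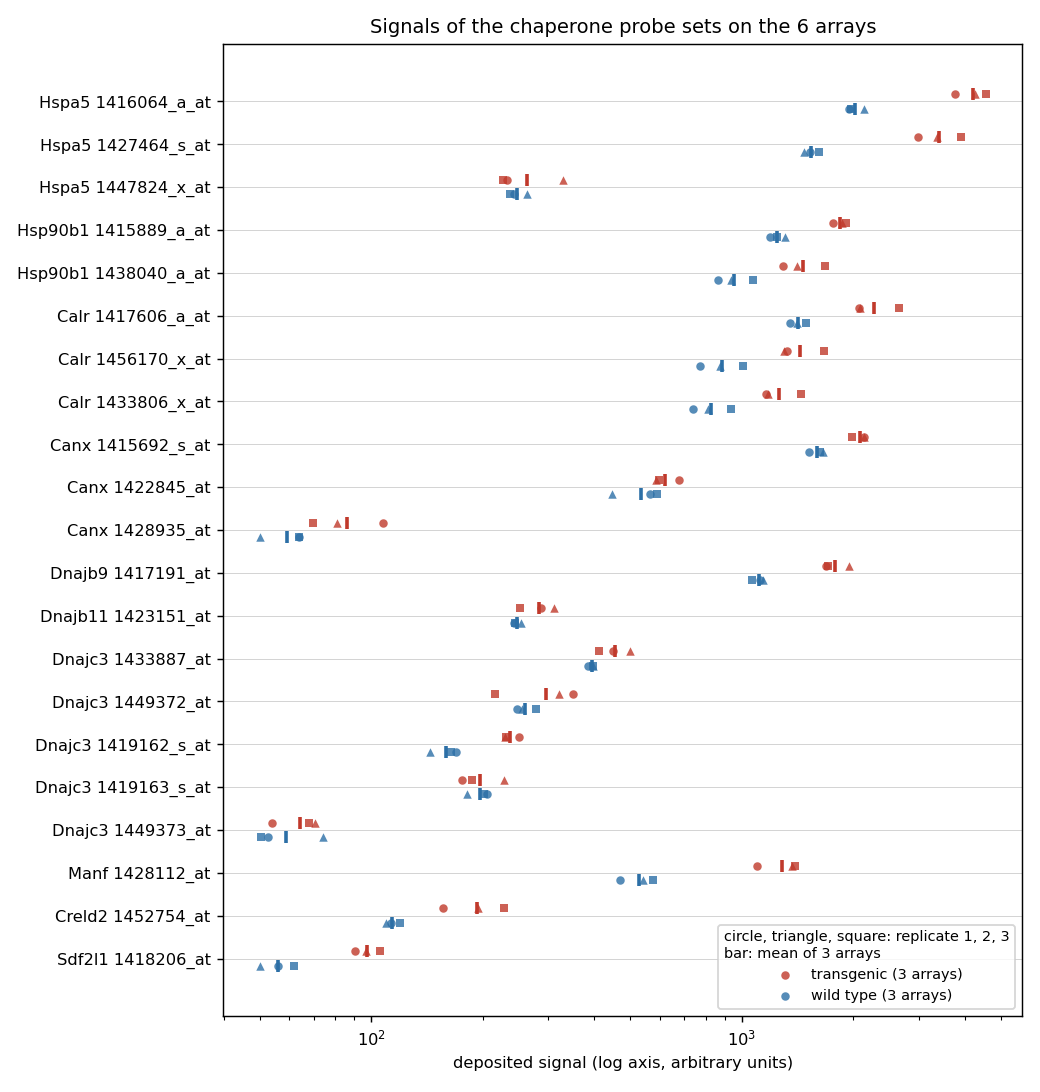
Deposited signal of each of the 21 probe sets on a log axis, 1 point per array, transgenic above wild type in each row, with a bar at the mean of 3 arrays. Hspa5, Hsp90b1, Calr, Dnajb9 and Manf show groups that lie apart, while the dimmest probe set of Hspa5, with means of 263 and 247, 3 of the 5 of Dnajc3, 1 of Canx and that of Dnajb11 overlap.

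Hspa5 was measured by 3 probe sets, and the brighter 2 gave the larger differences. On 1416064_a_at the signals were 3769.8, 4259.9 and 4564 in transgenic muscle, against 1946, 2142 and 1968 in wild type muscle. The lowest transgenic array thus lay far above the highest wild type array. The difference was 2.07-fold (95% interval 1.84 to 2.32). On 1427464_s_at the signals were 2986, 3359 and 3896 in transgenic muscle, against 1525, 1467 and 1612 in wild type muscle, a 2.20-fold difference (1.92 to 2.52). The third, 1447824_x_at, gave 233, 330.2 and 227 against 242, 263 and 237. There the groups overlapped, and the difference was 1.05-fold (0.848 to 1.29). The suffix _x_at, which 2 of the 3 probe sets of Calr also carry, marks probes that can bind other transcripts. Probe sets with the suffix _s_at can share probes with other transcripts as well. They are 1427464_s_at of Hspa5, 1415692_s_at of Canx, and 1419162_s_at and 1419163_s_at of Dnajc3.

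Hsp90b1, which folds a narrower set of clients that includes integrin chains, was measured by 2 probe sets that gave like differences. On 1415889_a_at the signals were 1763, 1861 and 1915 in transgenic muscle, against 1188, 1309 and 1247 in wild type muscle, a 1.47-fold difference (1.33 to 1.64). On 1438040_a_at they were 1295, 1405 and 1682 against 861, 933 and 1071, a 1.52-fold difference (1.29 to 1.78). The groups were apart on both, although only the brighter passed, and its spread between transgenic arrays was the smallest of the 21 at 4.16% of the mean. It did not pass without wild type replicate 1. With the round of hybridisation as a covariate both passed.

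Among the partners of Hspa5, Manf stood out. Manf protein binds Hspa5 and is also secreted. Its signals were 1100.6, 1363 and 1394 in transgenic muscle, against 470.4, 542 and 576 in wild type muscle. The 2.38-fold difference (2.03 to 2.80) was the largest of the 21 and the 12th highest log2 difference of all kept probe sets, where the 2 bright ones of Hspa5 ranked 20 and 27. Dnajb9, a J-domain co-chaperone that also holds the sensor Ern1 in check, gave 1687, 1943 and 1711 in transgenic muscle, against 1119.9, 1142 and 1067 in wild type muscle. Its groups were apart by a wide gap, and the difference was 1.59-fold (1.42 to 1.78).

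Dnajb11, a further J-domain co-chaperone, differed little. It gave 287, 311 and 253 in transgenic muscle, against 243, 253 and 244 in wild type muscle, a 1.14-fold difference (0.965 to 1.34). Its lowest transgenic array lay just under its highest wild type array. Sdf2l1, which forms a complex with Dnajb11, was dim, with 90.4, 96.6 and 105.5 in transgenic muscle, against 56.0, 49.96 and 62.0 in wild type muscle. Here the groups were apart, with a 1.58-fold difference (1.24 to 2.004) that did not pass. For the dim probe sets the added 16 makes a fold smaller than the ratio of signals.

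The 5 probe sets of Dnajc3, a co-chaperone first known as an inhibitor of the kinase PKR, did not give 1 answer. The brightest, 1433887_at, gave 448, 499.7 and 412 in transgenic muscle, against 385, 398 and 396 in wild type muscle, a 1.14-fold difference (0.990 to 1.32). On 1419162_s_at the signals were 251, 229 and 232 against 169, 144 and 164, a 1.45-fold difference (1.22 to 1.72). The groups were apart on these 2 and overlapped on the other 3, whose differences were 1.11-fold on 1449372_at, 1.07-fold on 1449373_at and 0.998-fold on 1419163_s_at. Of the 5, none passed.

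The lectin chaperones differed in size. Calr was 1.52-fold to 1.61-fold on its 3 probe sets, with all groups apart. On the brightest, 1417606_a_at, the signals were 2072, 2085 and 2649.9 in transgenic muscle, against 1345, 1413 and 1486 in wild type muscle, a 1.59-fold difference (1.38 to 1.83). It passed in the full fit, but in none of the 3 fits that each left out 1 wild type array. With the round as a covariate all 3 probe sets passed. Canx was lower in size. On its brightest probe set, 1415692_s_at, the signals were 2132, 2133 and 1980.1 in transgenic muscle, against 1516, 1661 and 1624 in wild type muscle, a 1.30-fold difference (1.17 to 1.44). Its 2 dimmer probe sets gave 1.17-fold on 1422845_at, where the groups overlapped, and 1.34-fold on 1428935_at, where they did not, and none of the 3 passed.

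Creld2 encodes a small ER protein with EGF-like repeats that is made during ER stress. It gave 157, 194 and 228 in transgenic muscle, against 113, 109 and 119.9 in wild type muscle, a 1.59-fold difference (1.28 to 1.98). The groups were apart, and the transgenic arrays spread by 18.6% of their mean, against 4.65% for the wild type arrays. It did not pass.

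**Figure D3:**
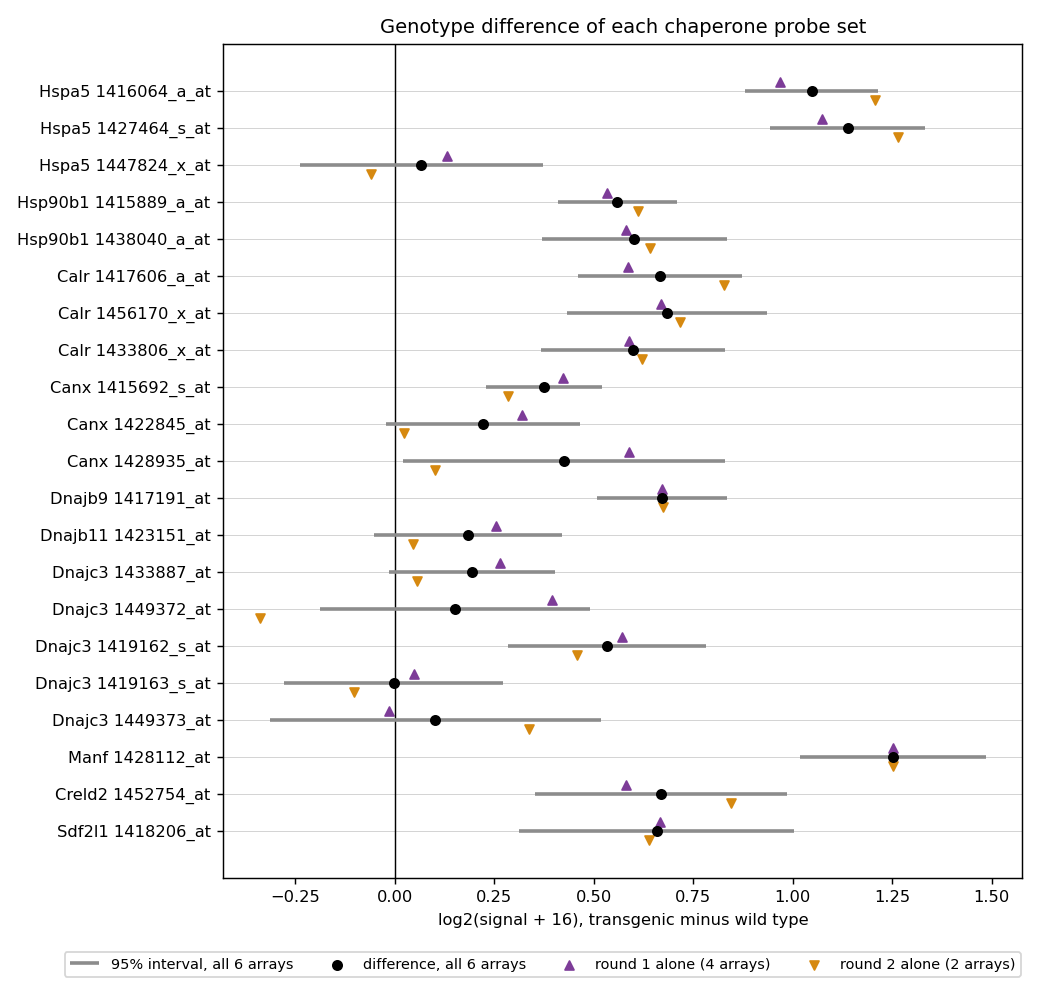
Log2 difference of each probe set, transgenic minus wild type, with its 95% interval over all 6 arrays (black and grey) and the values within each round of hybridisation (triangles). Intervals lie above 0 for 14 of the 21, and Manf and Dnajb9 show nearly the same value in both rounds.

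By the recorded clock times of hybridisation, the arrays were set in 2 rounds, the first with replicates 1 and 2 and the second with replicate 3 of each genotype. Of the 21 differences 20 were positive in round 1 and 18 in round 2, which holds 1 array of each genotype and allows no test. Manf was 2.38-fold in both, and Dnajb9 was 1.59-fold in both. The brightest probe set of Hspa5 was 1.96-fold in round 1 and 2.31-fold in round 2. That of Calr was 1.502-fold and 1.78-fold, and Creld2 was 1.496-fold and 1.797-fold. That of Canx went the other way, at 1.34-fold in round 1 and 1.22-fold in round 2. The largest gap was that of 1449372_at of Dnajc3, at 1.32-fold and 0.790-fold.

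The transgenic arrays were therefore not alike within the group. Transgenic replicate 3 lay above the transgenic mean on all 3 probe sets of Calr, both of Hsp90b1, the 2 bright ones of Hspa5, and those of Manf, Creld2 and Sdf2l1. It lay below that mean on all 3 of Canx, on 4 of the 5 of Dnajc3, and on those of Dnajb9 and Dnajb11. Wild type replicate 3 lay above the wild type mean on all 3 of Calr and on Manf, Creld2 and Sdf2l1, and also on all 3 of Canx and 4 of the 5 of Dnajc3. The spread between transgenic arrays had a median of 12.5% of the mean over the 21 probe sets, against 6.07% for the wild type arrays, and was the wider in 15 of the 21. Round and replicate number cannot be told apart within a genotype, and their part in this was not tested.

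**Figure D4:**
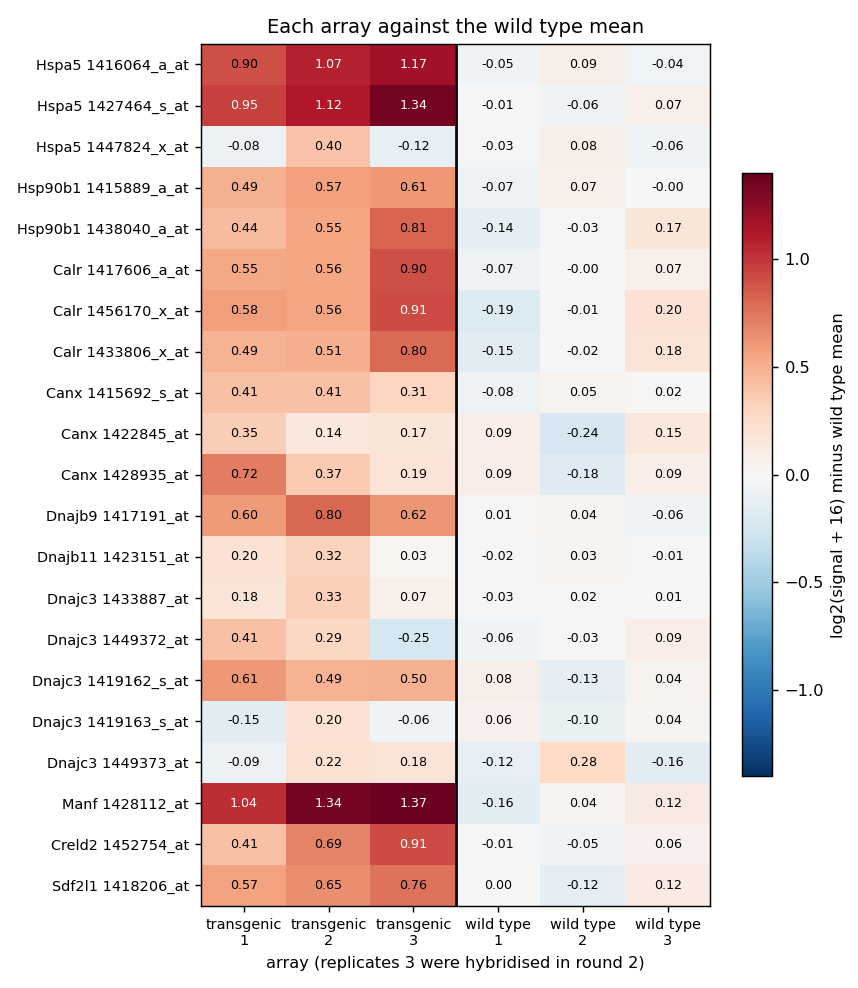
Each array's log2(signal + 16) minus the wild type mean, 1 row per probe set, with the transgenic arrays on the left. Rows of Hspa5 (the 2 bright probe sets), Manf, Calr and Hsp90b1 are red on all 3 transgenic arrays, as is 1419162_s_at of Dnajc3. The other rows of Dnajc3 and that of Dnajb11 are paler, and on transgenic replicate 3 those of 1449372_at and 1419163_s_at are blue.

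Other genes of ER folding and quality control were set beside the chaperones in 4 lists, with 58 of 61 listed genes measured and 111 probe sets kept. Of these, 2 passed as higher and 0 as lower, Pdia6 and Herpud1. Their median log2 difference was 0.13, and 75.7% were positive. At an unadjusted p under 0.05, 22 of the 111 were higher and 0 lower, against 3.51% higher and 4.34% lower of all kept probe sets, the same background as for the counts of each list below. Pdia6, a disulphide isomerase that works with Hspa5, gave 1043, 1044 and 1226 in transgenic muscle, against 492, 634 and 649.98 in wild type muscle, a 1.85-fold difference (adjusted p = 0.0121, limma). Herpud1, a membrane protein of ER-associated degradation, gave 1889, 1912 and 1939 against 1279, 1017 and 1267, a 1.61-fold difference (adjusted p = 0.0126, limma). The groups were apart for both, and both lost the call without the intensity trend.

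Further folding factors, such as nucleotide exchange factors and prolyl isomerases, had a median of 0.15 over 30 kept probe sets, and 0 passed, with 7 higher and 0 lower at an unadjusted p under 0.05. Hyou1, which exchanges the nucleotide of Hspa5, gave 239.8, 324 and 282 in transgenic muscle, against 188, 202 and 186 in wild type muscle, a 1.42-fold difference (adjusted p = 0.252, limma). Its groups were apart. Its 2 dimmer probe sets gave log2 differences of 0.25 and -0.30. Dnajb12, a J-domain protein of the ER membrane, gave 1.399-fold with overlapping groups (adjusted p = 0.607, limma) on the dimmer of its 2 probe sets and 1.09-fold on the brighter. The relatives of members by sequence differed less, with Sdf2, the relative of Sdf2l1, at 1.08-fold and Creld1, that of Creld2, at 1.14-fold. Clgn, the testis relative of Canx, lay below the filter on all 3 probe sets.

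Disulphide isomerases and oxidases had a median of 0.11 over 19 kept probe sets, with 3 higher and 0 lower at an unadjusted p under 0.05. Pdia6 passed, and a dim probe set of Pdia3, the isomerase that works with Calr and Canx, came next at 1.33-fold (adjusted p = 0.803, limma). The brighter probe set of Pdia3 gave 1.04-fold. Regulators of the unfolded protein response had a median of 0.10 over 27 kept probe sets, and 0 passed. At an unadjusted p under 0.05, 3 were higher and 0 lower, and all 3 were probe sets of 1 gene, Xbp1. Xbp1, the transcription factor that Ern1 activates by splicing, gave 2211, 2084 and 2419 in transgenic muscle, against 1599, 1655 and 1809.8 in wild type muscle, a 1.32-fold difference (adjusted p = 0.0959, limma). Its groups were apart. Its other probe sets gave 1.28-fold, 1.22-fold and, on the dimmest, 1420012_at, 0.802-fold with overlapping groups. How far they tell spliced from unspliced transcript is not known here. The dim 1453288_at of Atf6 gave 1.405-fold (adjusted p = 0.675, limma) with overlapping groups, and its 2 brighter probe sets gave 1.19-fold and 0.901-fold. Genes of ER-associated degradation had a median of 0.14 over 35 kept probe sets, with 9 higher and 0 lower at an unadjusted p under 0.05. Besides Herpud1, Derl3, a channel component, gave 1.87-fold from signals of 55.9, 75.7 and 63.4 in transgenic muscle, against 17.9, 27.2 and 39.0 in wild type muscle (adjusted p = 0.290, limma), and a dim probe set of Vcp, the segregase, 1.62-fold (adjusted p = 0.642, limma). The bright probe set of Vcp gave 0.934-fold.

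Lists from outside ER folding had medians near that of all probe sets, although that of the sarcoplasmic reticulum held more lower probe sets, as given below. Chaperones of the cytosol and mitochondria, which include the HSP70, HSP90 and J-domain relatives of the members, had a median of 0.00 over 42 kept probe sets. None passed, and 1 of the 42 was higher and 0 lower at an unadjusted p under 0.05, where 3.51% of all kept probe sets were higher. A dim probe set of Hsp90aa1 gave 1.53-fold (adjusted p = 0.683, limma) and the dimmest tested one of Hspa9 gave 0.838-fold (adjusted p = 0.710, limma), both with overlapping groups. The brighter probe sets of Hsp90aa1 gave 0.948-fold to 1.08-fold, and those of Hspa9 0.964-fold to 1.001-fold. Resident proteins of the sarcoplasmic reticulum had a median of -0.05 over 29 kept probe sets, and 0 passed, with 0 higher and 7 of the 29 lower at an unadjusted p under 0.05, where 4.34% of all kept probe sets were lower. A dim probe set of Trdn, the triadin, gave 0.661-fold (adjusted p = 0.496, limma), and the dimmer of 2 of Ryr1, the calcium release channel, 0.784-fold (adjusted p = 0.756, limma). The brightest of Trdn gave 0.879-fold with groups apart, and the brighter of Ryr1 gave 0.920-fold with overlapping groups. Neither probe set of Ryr1 was among the 7. Bright ones among the 7 were those of Atp2a1 and Casq1, each at 0.928-fold, and those of Asph at 0.891-fold and 0.898-fold, all with groups apart. The difference between lists was not tested.

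**Figure D5:**
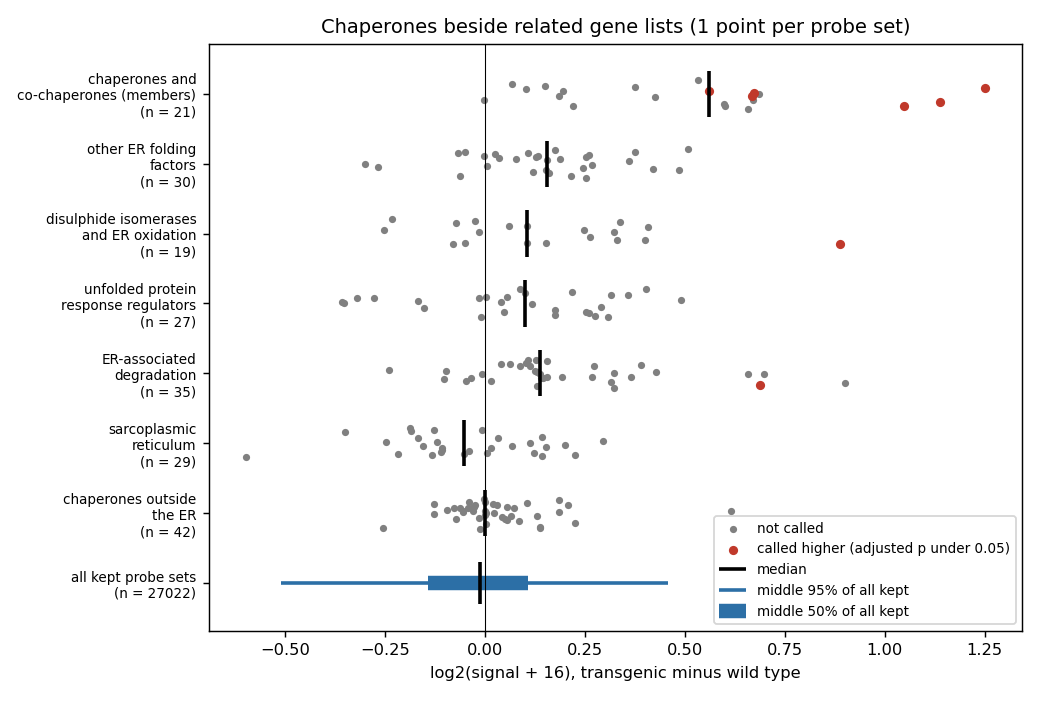
Log2 difference of each kept probe set, transgenic minus wild type, in the chaperone group and 6 related lists, with medians as black bars and called probe sets in red; the bottom row gives the spread of all 27022 kept probe sets. The chaperone median is 0.56, those of the 4 other ER lists lie between 0.10 and 0.15, and those of the sarcoplasmic reticulum and of chaperones outside the ER are -0.05 and 0.00.

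The genes with the pattern most like that of Hspa5 were found by Pearson correlation of the brightest kept probe set over the 6 arrays, among 12942 genes. As both genotypes are in the 6 points, any gene with a clear genotype difference scores high. Among the members, r with Hspa5 was 0.997 for Hsp90b1, 0.990 for Manf, 0.976 for Dnajb9 and 0.964 for Calr, and it was lowest for Dnajc3, at 0.745, and Dnajb11, at 0.691. The 6 closest genes outside the group were the proton-sensing receptor Gpr4 at 0.994, the ferroxidase Heph at 0.991, the serine synthesis enzyme Psat1 at 0.984, Tpbgl at 0.983, the COPI coat subunit Copa at 0.981 and the disulphide isomerase P4hb at 0.979. Gpr4 was dim, with 36.8, 52.0 and 56.4 in transgenic muscle, against 12.8, 13.7 and 11.8 in wild type muscle. All its wild type signals lay below the level of the filter, so only its transgenic arrays brought Gpr4 into this comparison. P4hb gave 2671, 2654 and 2763 in transgenic muscle, against 2266, 2310.4 and 2162.5 in wild type muscle, a 1.199-fold difference (adjusted p = 0.192, limma). Of these 6 only Tpbgl passed, at 1.52-fold (adjusted p = 0.0197, limma).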

How the data were processed

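RNA of calf muscle was hybridised to 6 Affymetrix Mouse430_2 arrays, an array type given per the file headers. The deposited values are a linear intensity for each probe set. The submitters' processing notes name GCOS 1.1.1 as the software, without the signal algorithm, and no detection calls were used here. To judge by the values, the authors had scaled every array to the same mean after trimming 2% at each end, which hides a shift shared by most transcripts. The deposited run files, which hold no expression values, gave the array type, the fluidics module and the clock time of hybridisation. The rounds were set here from these times, with arrays over an hour after the first as round 2.

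Of 45101 rows 64 were controls and were dropped. The analysis used log2(signal + 16) with no further normalization and kept probe sets whose mean exceeded the 40th percentile, which is a signal near 21.7. limma 3.58.1 in R 4.3.3 fitted genotype across all kept probe sets with an intensity trend and no covariates. Tests were two-sided, with Benjamini-Hochberg adjustment over all kept probe sets and a threshold of 0.05. A fold is 2 to the power of the difference on that scale. The number of arrays limits the precision, and p-values measure the spread between pools.

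Symbols came from the platform annotation, updated through gene IDs to RefSeq (GRCm38.p6). Of the rows 34945 had 1 symbol, 932 several and 9160 none, and 34741 matched. Among the listed genes and markers, Cdnf, Fkbp10, Hsp90ab1, Plin1 and Cfd were not analysed here, and some others are not reported here. Promoter windows are from RefSeq.

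Members, lists and naming rule were chosen with earlier results of these data known. The rule names every member, each called probe set of a list with its 2 largest differences, relatives of members, and the 6 genes most like Hspa5. Atp2a1, Casq1 and Asph were named outside this rule.

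Replicate numbers are shared by the genotypes, but the deviations of same-numbered arrays from their group means correlated at 0.00, 0.06 and 0.05, so they were not treated as pairs. Results were recomputed with another offset, normalization, filter or variance model, with array weights or a block, within a round, and without each array in turn.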

Additional observations from a re-analysis of the deposited data

How the results depend on the processing

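Over 18 alternatives that allowed a test, Hspa5 (both bright probe sets), Manf and Dnajb9 passed in 17, all but the fit without the intensity trend. Hsp90b1 passed in 15 and Calr in 13 on the probe sets that passed in the full fit. Without the trend 0 of the 21 chaperone probe sets, 0 of the other ER probe sets and, over all probe sets, 1 higher and 0 lower passed, while 1966 were under an unadjusted p of 0.05. With a random block for the fluidics module 13 chaperone probe sets and 10 other ER probe sets passed as higher, and 154 higher and 143 lower over all, but each module held a single genotype. Over all probe sets, against 27 higher and 6 lower, 42 were higher with equal array medians and 16 with no filter. Lower calls numbered 2 with an offset of 1, 1 with no filter, 11 with array weights and 13 with the round as a covariate. Leaving out each array gave 17 to 30 higher, the fewest without wild type replicate 2, and 0 to 9 lower. Lower calls numbered 0 without wild type replicate 1, where 904 were lower at an unadjusted p under 0.05, and 1 without wild type replicate 2. It gave 4 to 7 chaperone probe sets. With the replicate block 9 chaperone probe sets of 5 genes passed, and 32 higher and 4 lower over all, and with the round as a covariate the same 9. Not every array correlated best with the array of its own number. The median of all kept probe sets moved by less than 0.1 in every setting.

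Differences near 0 changed sign. That of 1419163_s_at of Dnajc3, -0.00 in the full fit, was 0.0016 with quantile normalization, 0.048 with equal array medians and 0.047 in round 1 alone, and -0.11 to 0.069 with 1 array left out. That of 1447824_x_at of Hspa5 was -0.10 to 0.16 with 1 array left out, and 1449373_at of Dnajc3 was -0.016 in round 1 alone. The cause was not tested.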

Other observations

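The exact ERSE letters also picked out genes without any use of the arrays. Of 37 genes with a match in a promoter window, 31 were not among the 10 chaperones, and 9 of those had kept probe sets, 15 in all. They included the isomerase Pdia6, the oxidase Ero1b, the ubiquitin ligase Syvn1, the channel component Derl3 and the glycosylation enzyme Alg12, all of the ER. The others were Adcy3, Acacb, Pan2 and Spats2l. All 9 are named for the match and not by their values. Their median log2 difference was 0.23, and 12 of the 15 were positive, where the median over all 27022 kept probe sets was -0.01 and 47.4% were positive. Pdia6, Ero1b, Syvn1 and Derl3 are also in the 4 ER lists above, where 75.7% of kept probe sets were positive. Probe sets of 1 gene are not independent of each other. Of the 15, Pdia6 alone passed (adjusted p = 0.0121, limma). Derl3 gave a difference of 0.90, Ero1b 0.40, the 2 probe sets of Adcy3 0.61 and 0.20, Acacb 0.06, the 2 probe sets of Syvn1 0.32 and 0.27, and the 3 of Alg12 0.33, 0.23 and 0.13. Pan2 gave -0.29, and the 3 of Spats2l gave 0.01, -0.01 and -0.31. The window of Alg12 shares 173 bases with that of Creld2 on the opposite strand, so both hold the same match, and that of Calr shares 285 bases with 1700122E12Rik.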
